A study of Mus musculus with 2 samples.

Results

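The colon library held 360 cells that were chosen by 4 genes of the deposited table of corrected counts, namely Epcam of at least 5, Muc2 of at least 100, Reg4 below 10 and Chgb below 20. They were 12% of the 3008 cells with Epcam of at least 5 (exact Clopper-Pearson 95% interval 10.8% to 13.2%, counting error only) and 4.8% of the 7495 cells of the library. The share was 17.7% when cells with over 10% mitochondrial counts were left out. The whole series listed 11904 cells. They came with the name of mature goblet cells and the markers Muc2, Clca1, Zg16, Fcgbp and Tff3. Muc2 was high in each cell by the rule, but the median of each of the other 4 markers was 0, so the cells are called Muc2-high cells here.

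The tissue was the colon of wild-type C57BL/6 mice, female and 8 to 12 weeks old, with 3 mice pooled in 1 library made with the V3 kit. Cells without the blood cell marker CD45 had been sorted into an EpCAM+ epithelial and an EpCAM- fraction, which were mixed at equal parts before loading, so shares of all cells follow the mixing and not the tissue. The second library of the series, GFP+ mesenchymal cells of the Pdgfra-H2B-eGFP line made with the V2 kit, served as a background here (mean Muc2 0.0560). No cell could be assigned to a mouse, so there was no replicate, no test was run between classes, and each value describes this library alone.

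Goblet cells are the mucus-secreting cells of the gut epithelium. They build the gel-forming mucin Muc2 in the endoplasmic reticulum (ER), coat it with O-linked sugars in the Golgi, store it in granules and release it to form the mucus layer that keeps bacteria from the tissue. Deep crypt secretory cells, marked by Reg4, are a related secretory type at the base of colonic crypts and are known to lie beside stem cells.

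The cells were compared with all 2648 other cells with Epcam of at least 5 and, within them, with the 319 Reg4-high secretory cells with Reg4 of at least 10 and Chgb below 20. The remaining 2329 cells are called remaining epithelial cells. A corrected count is taken as a UMI (molecule) count after the authors' adjustment of each cell to a common depth. The level of a class is the mean corrected count per cell. Levels were compared between classes of cells and never between genes. Fold changes are log2 ratios of class means with 0.01 added to both.

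Muc2 lies on chromosome 7 of mouse build GRCm38 (chr7:141690340-141754693) and encodes the main gel-forming mucin of the colon. Its corrected counts in the 360 Muc2-high cells ran from 100 to 1284, with a 10th percentile of 131, a median of 319 and a 90th percentile of 691. In Reg4-high cells the median was 42, and in remaining epithelial cells it was 0 with a 90th percentile of 6.20. Muc2 alone made up 3.76% of all corrected counts of the Muc2-high cells, against 0.650% in Reg4-high cells and 0.126% in all other epithelial cells. These values follow from the rule and are a description only.

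Cells lay on both sides of the thresholds. The 25 cells with Muc2 less than 20 above its limit had medians of 108 for Muc2, 77 for Agr2 and 58 for Spink4, and the 36 cells with Muc2 at most 20 below it that met the other limits had medians of 88, 61 and 39. Of the 420 cells with Muc2 of at least 100, 54 were left out for Reg4 and 6 for Epcam below 5, and none was left out for Chgb alone. Just below the Reg4 limit, 19 Muc2-high cells had Reg4 of 5 to 9 with a Muc2 median of 218. Just above it, 8 cells with Muc2 of at least 100 had Reg4 of 10 to 14, with a Muc2 median of 292. Cells with Reg4 of 10 to 14 and Muc2 below 100 are not among these 8, so both medians follow from the Muc2 limit.

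**Figure D1:**
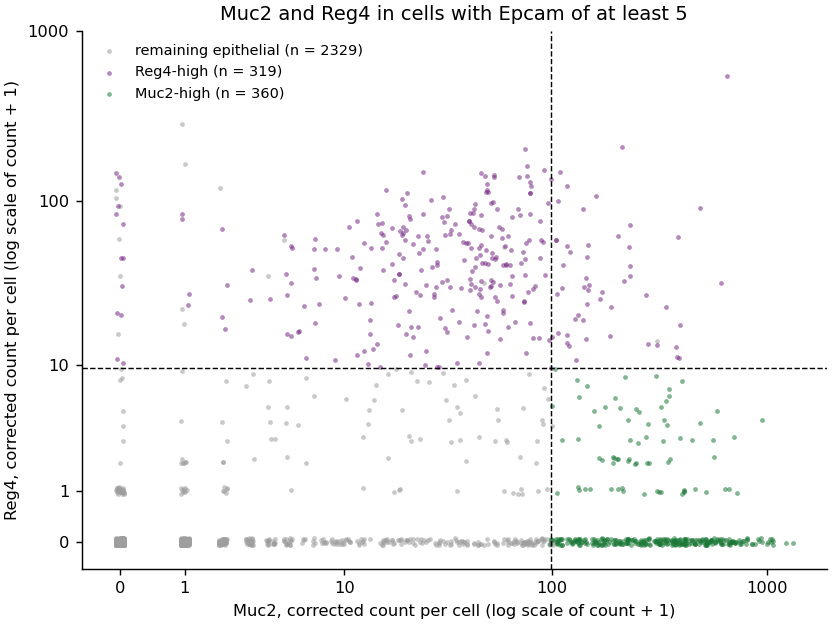
Corrected counts of Muc2 (x axis) and Reg4 (y axis), both on a log scale of count + 1, in the 3008 cells with Epcam of at least 5, with a small random shift so that points do not hide each other. Dashed lines mark the limits of 100 and 10. The 360 Muc2-high cells (green) sit mostly at a Reg4 value of 0, and the 319 Reg4-high cells (purple) spread around a Muc2 median of 42 with 53 of them at 100 or more. Grey points above the Reg4 limit have Chgb of at least 20.

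The depth of the classes was similar, with median totals of 10058 corrected counts in Muc2-high, 9916 in Reg4-high and 9618.5 in all other epithelial cells, and totals after correction do not show the sequenced depth. Median mitochondrial shares were 6.56%, 6.52% and 10.0%, and their part in the ratios was not tested. Markers of fibroblasts, hormone cells and immune cells had a median sum of 0 in the Muc2-high cells, and absorptive markers did not. The summed mean of 7 fibroblast markers was 4.58, against 4.12 in Reg4-high cells and 174 in cells with Epcam at 0, and each of the 7 was listed in at least 1 Muc2-high cell. The sum of 10 hormone-cell markers was 0.244 with 2 of them at 0, and that of 5 immune markers 0.0417 with 2 at 0. The sum of 10 absorptive markers had a mean of 20 and a median of 13 in Muc2-high cells, 11.3 and 9 in Reg4-high cells, and 59.3 and 5 in remaining epithelial cells. The part of these markers in the results was not tested. Scrublet called 4 of the Muc2-high and 10 of the Reg4-high cells doublets, and 1 cell barcode was shared by the 2 libraries.

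Several goblet cell genes were present in nearly every Muc2-high cell. Agr2, an ER protein needed for making Muc2, had a 10th percentile of 47.8, a median of 166 and a 90th percentile of 328 in Muc2-high cells. The Agr2 median was 63 in Reg4-high cells and 3 in remaining epithelial cells. Spink4, a small secreted protein of goblet cells, had a median of 141 in Muc2-high cells (10th percentile 23, 90th percentile 342), close to the median of 129 in Reg4-high cells, and 0 in remaining epithelial cells. Spdef, the transcription factor that drives goblet cell maturation, was listed above 0 in 92.2% of Muc2-high cells with a median of 5, against 75.5% and a median of 1 in Reg4-high cells and 7.43% in remaining epithelial cells. It was listed in 0.892% of cells with Epcam at 0, a share that free RNA in the droplets can give. Klk1, a tissue kallikrein with close relatives that could share its reads, was listed in 100% of Muc2-high cells with a median of 55 and a median of 43 in Reg4-high cells.

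The other markers did not follow this pattern and were concentrated in few cells. Clca1, a secreted metalloprotease of mucus, was above 0 in 20% of Muc2-high cells, Fcgbp, a large mucus protein that binds Muc2, in 45.6%, and Tff3, a trefoil peptide that accompanies Muc2, in 40.0%. In cells with Epcam at 0 these shares were 2.68%, 2.11% and 9.08%, and in Reg4-high cells 53.0%, 80.9% and 76.2%. Zg16, a lectin of mucus that binds bacteria, was above 0 in 14.7%, no more than the 15.3% of cells with Epcam at 0, which should lack it, at median totals of 10058 and 8679 corrected counts. The share of Zg16 above 0 therefore cannot be told from background, whereas 26 Muc2-high cells had Zg16 of at least 10.

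A value of at least 10 was reached by 43 cells for Clca1, 42 for Fcgbp and 53 for Tff3, and a few cells had very high values. The highest cell had 2709 for Zg16, 1364 for Clca1, 584 for Tff3 and 387 for Fcgbp. The top 10% of cells for each gene carried 99.9% of all Zg16, 97.9% of all Clca1, 93.4% of all Fcgbp and 92.6% of all Tff3 in the class. The same share was 23.1% for Agr2 and 25.9% for Spink4.

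The 4 markers tended to sit in the same cells. None of them reached 10 in 282 Muc2-high cells, 1 reached it in 38, and all 4 reached it in 19. Of the 26 cells with Zg16 of at least 10, 25 also had Fcgbp, 23 Clca1 and 20 Tff3 at 10 or more. Among the 2466 cells with Epcam at 0, 1 cell had any of the 4 at 10 or more.

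The 78 cells with at least 1 of these markers at 10 or more, a division made after the values were seen, had a Muc2 median of 228 (10th percentile 124, 90th percentile 520), and the other 282 had 331 (137 to 720). Agr2 medians were 156 and 168, and Spink4 medians 145 and 137. Plet1 medians were 5 and 12, and Klk1 medians 44.5 and 58. Muc2 was not higher in the cells that held the other markers, and the ranges overlapped for each of these genes.

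**Figure D2:**
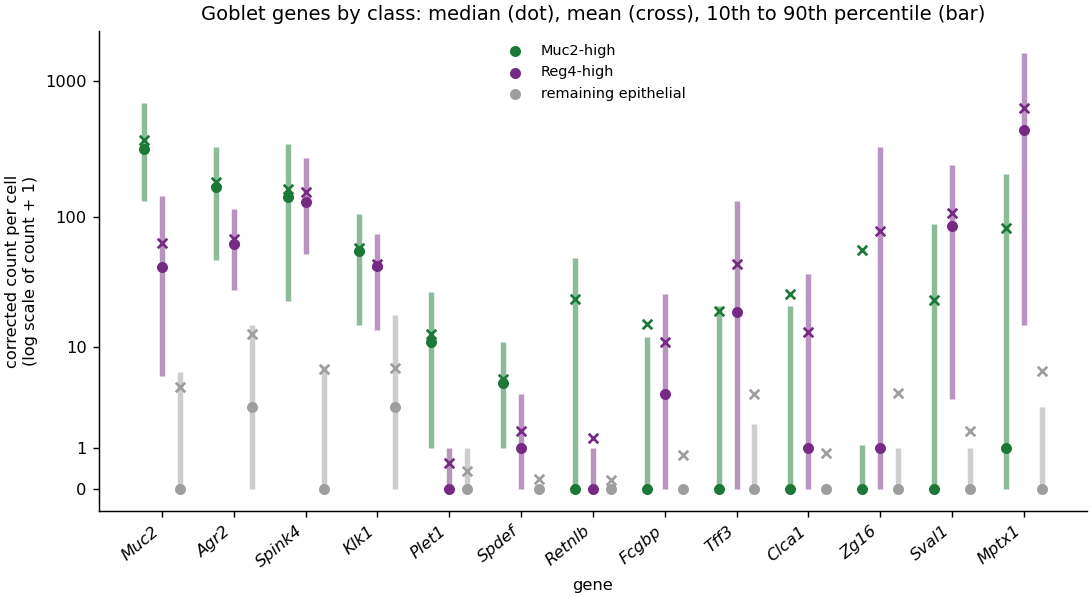
Corrected counts per cell (y axis, log scale of count + 1) of 13 genes (x axis) in Muc2-high, Reg4-high and remaining epithelial cells, with the median as a dot, the mean as a cross and the 10th to 90th percentile of cells as a bar. Agr2, Spink4 and Klk1 have medians of 166, 141 and 55 in Muc2-high cells, whereas Clca1, Zg16, Fcgbp and Tff3 have medians of 0 with means far above them.

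Compared with all other epithelial cells, 1076 of 9725 genes with a mean of at least 0.1 in either class were 2-fold higher in Muc2-high cells (11.1%) and 1222 were 2-fold lower (12.6%), with the 4 genes of the rule left out. The median log2 ratio over all genes was -0.06. Compared with Reg4-high cells, 685 of 9431 genes were 2-fold higher (7.26%) and 548 lower (5.81%).

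The 20 genes with the highest ratios over the other epithelial cells were Retnlb, Ang4, B3gnt6, Plet1, Mt3, Art2a-ps, Cmah, Cgref1, Kcnh3, Ccl9, Nov, Kcnk6, Casc4, Spdef, Nupr1, Etv5, Kdelr3, Bace2, Copz2 and Col8a1, in that order. Retnlb, which encodes the antibacterial protein resistin-like beta, had means of 24.2 in Muc2-high cells, 0.315 in all other epithelial cells and 1.37 in Reg4-high cells (log2 ratio 6.22 over the others). It was listed in 49.7% of Muc2-high cells, against 2.07% of cells with Epcam at 0, and the top 10% of cells carried 82.9% of it. Ang4, an antimicrobial ribonuclease from a family of near-identical genes that could share its reads, had means of 7.19 and 0.140 (log2 ratio 5.58) but was above 0 in 20.6% of Muc2-high cells (0.852% of cells with Epcam at 0), with 98.1% of it in the top 10%.

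Other leading genes were spread over most Muc2-high cells. Plet1, a surface protein of epithelial cells, had a 10th percentile of 1, a median of 11 and a 90th percentile of 27.1. It was above 0 in 91.9% of Muc2-high cells, 15.7% of Reg4-high cells, 13.9% of remaining epithelial cells and 1.09% of cells with Epcam at 0, and its log2 ratio was 5.06 over all other epithelial cells and 4.55 over Reg4-high cells. B3gnt6, the core 3 synthase that starts a main class of mucin sugars in the colon, was above 0 in 72.5% of Muc2-high cells and 0.487% of cells with Epcam at 0, with a mean of 2.76, against 0.0623 in the other epithelial cells and 0.210 in Reg4-high cells.

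Cgref1, Mt3 and Cmah showed the same contrast. Cgref1 had a median of 6 in Muc2-high cells, 1 in Reg4-high cells and 0 in remaining epithelial cells. The metallothionein Mt3 had a mean of 3.30 in Muc2-high and 0.266 in Reg4-high cells, and Cmah, which makes a hydroxylated sialic acid, 2.26 and 0.254. Nupr1, a stress-induced nuclear protein, had a mean of 45.4 in Muc2-high cells against 3.21 in the other epithelial cells and was also found at 2.98 in cells with Epcam at 0. All 20 leading genes over the other epithelial cells were also at least 2-fold higher than in Reg4-high cells, with log2 ratios of 1.27 to 4.55.

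The genes lowest in Muc2-high cells were hormone genes and genes of other epithelial cells. The limit on Chgb, a granule protein of hormone cells, was part of the rule and left such cells in the comparison class, so the hormone values are a description. Insl5, Pyy and Gcg, hormones of the colonic L cell, had means of 0.0194, 0.0639 and 0.0528 in Muc2-high cells against 5.05, 11.4 and 5.54 in the other epithelial cells. Tgm3, a transglutaminase, had means of 0.103 and 3.90, and Saa1, a serum amyloid A protein of surface epithelium, 0.192 and 4.26.

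Secreted mucus genes were mostly higher than in the other epithelial cells, where 12 of 15 members of the list were 2-fold higher and 2 lower, with a median log2 ratio of 2.92. Of all genes 11.1% were higher and 12.6% lower, so the share of lower members lay near that of all genes. Agr2 was higher by a log2 ratio of 3.20, Clca1 by 3.49, Fcgbp by 2.92, Spink4 by 2.74 and Zg16 by 2.12. With the highest 10% of cells of each class left out, Zg16 turned to a log2 ratio of -1.60 (trimmed means 0.0525 and 0.180), while Agr2 was at 4.35, Spink4 at 4.58, Clca1 at 4.21, Fcgbp at 3.02 and Tff3 at 1.32. The list then had 10 higher and 3 lower members. The highest 10% of the other epithelial cells can include Reg4-high cells, which also held these genes, and their part was not tested. The 2 lower members were Lypd8, a surface-anchored protein that holds off flagellated bacteria, with means of 10.3 and 44.8, and Dmbt1, a scavenger receptor protein of mucus, with 1.06 and 10.9.

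Against Reg4-high cells the same list was split, with 7 of 15 members 2-fold higher (background 7.26%), 2 lower (5.81%) and a median log2 ratio of 0.99. Leaving out the highest 10% of cells of each class gene by gene, which was decided after the values were seen, turned this to 4 higher and 6 lower. With that restriction the means in Muc2-high and Reg4-high cells were 0.0525 and 22.6 for Zg16, 0.617 and 4.20 for Clca1, 1.12 and 5.91 for Fcgbp and 1.59 and 29.1 for Tff3. Agr2 stayed higher in Muc2-high cells, at 154 against 59.1.

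Of 6 membrane mucins, 2 were 2-fold higher and 1 lower than in the other epithelial cells (all genes 11.1% and 12.6%), and 2 were higher and 1 lower than in Reg4-high cells (all genes 7.26% and 5.81%). Muc4, a membrane mucin of secretory and surface cells, had means of 2.07 in Muc2-high, 0.984 in Reg4-high and 0.444 in all other epithelial cells. Muc13 had 5.92, 9.52 and 6.83 in the same order. The table listed Muc3 and Muc3a apart, and the 2 could share reads, with Muc3 at 0.461 against 7.79 in the other epithelial cells and Muc3a at 0.958 against 0.676.

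The enzymes that build and sulfate mucin O-glycans were higher as a list in both comparisons. Of 45 members, 34 were 2-fold higher and 1 lower than in the other epithelial cells (all genes 11.1% and 12.6%, median log2 ratio 1.73). Against Reg4-high cells 21 were higher and 3 lower (all genes 7.26% and 5.81%, median 0.94), and the lower share lay near that of all genes. The first step, transfer of GalNAc, was represented by Galnt12 with means of 4.20 in Muc2-high and 0.755 in the other epithelial cells, Galnt7 with 7.45 and 1.52, Galnt3 with 2.38 and 0.387 and Galnt6 with 2.04 and 0.317. C1galt1, the core 1 synthase, had 4.18 and 0.792, its chaperone C1galt1c1 had 3.05 and 0.410, and Gcnt3, which branches cores 2 and 4, had 5.40 and 0.668.

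Sugar precursors and caps followed. Gfpt1, the entry enzyme of hexosamine synthesis, had a median of 13 in Muc2-high cells (10th percentile 4, 90th percentile 21), 3 in Reg4-high and 2 in remaining epithelial cells. The fucosyltransferase Fut2 had means of 1.97, 0.818 and 0.302 in Muc2-high, Reg4-high and all other epithelial cells, and the sulfotransferase Chst4 had 1.82, 1.25 and 0.333. Members that were higher in Reg4-high cells were the branching enzyme Gcnt1 (0.186 in Muc2-high against 0.646 in Reg4-high cells), the sialyltransferase St3gal6 (2.38 against 5.65) and Papss2, which makes the sulfate donor (0.361 against 1.04). Papss2 was also the member that was 2-fold lower than in the other epithelial cells.

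Genes of protein folding in the ER and of the unfolded protein response were higher as a list in both comparisons. Of 46 members, 32 were higher and 0 lower than in the other epithelial cells (all genes 11.1% and 12.6%, median log2 ratio 1.40). Against Reg4-high cells 12 were higher and 0 lower (all genes 7.26% and 5.81%, median 0.63). Txndc5, a disulfide isomerase, had a median of 10 in Muc2-high, 3 in Reg4-high and 0 in remaining epithelial cells. Fkbp11 had a mean of 2.25 against 0.202 in the other epithelial cells, and Ern2, the IRE1 beta sensor of mucus-secreting cells, 2.12 against 0.381. Xbp1, the transcription factor that IRE1 splices into its active form, had medians of 5, 4 and 1 in Muc2-high, Reg4-high and remaining epithelial cells. The general chaperones Hspa5 (9.31 against 4.78, log2 ratio 0.96) and Hsp90b1 (4.77 against 3.35) were below 2-fold.

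The start regions of these ER genes were read from RefSeq (build GRCm38.p6), 250 bases before each start, because a known element of ER stress genes, CCAAT and CCACG with 9 bases of any kind between them, can lie there. It was searched on both strands and found for 9 of the 37 ER list genes that matched the promoter table (24.3%) and for 35 of all 27025 genes of the table (0.130%). It was not found in the windows of the matched genes of the O-glycosylation list (36 genes) or the transport list (42 genes). The ER list was drawn up to include genes of the unfolded protein response, so its share describes the list and not the Muc2-high cells. The element with 20 bases to each side, read in the direction of the gene, is shown for 5 of the 9 genes, with the element in capitals.
Hspa5, chr2:34772005-34772063, plus strand: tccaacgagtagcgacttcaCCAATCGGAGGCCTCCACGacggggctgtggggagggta
Hsp90b1, chr10:86705618-86705676, minus strand: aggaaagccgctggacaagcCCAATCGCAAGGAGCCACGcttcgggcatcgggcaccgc
Pdia6, chr12:17266471-17266529, plus strand: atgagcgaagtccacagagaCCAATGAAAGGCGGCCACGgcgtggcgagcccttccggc
Creld2, chr15:88819500-88819558, plus strand: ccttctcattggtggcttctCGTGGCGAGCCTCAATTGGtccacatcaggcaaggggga
Canx, chr11:50325780-50325838, minus strand: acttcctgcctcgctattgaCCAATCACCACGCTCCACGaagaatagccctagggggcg

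The Creld2 window holds the element on the opposite strand. The ratios of ER genes with and without the element overlapped. Of the 8 genes with it that reached the minimum mean, 5 were 2-fold higher than in the other epithelial cells (median log2 ratio 1.29), and of the 28 without it 21 were (median 1.57). Pdia6 (log2 ratio 1.89) and Creld2 (1.69) were at the upper end of the 8, and Canx, a lectin chaperone, was at the lower end with -0.02.

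Genes for entry into the ER and for transport to and through the Golgi were higher than in the other epithelial cells for 42 of 50 members and lower for 0 (all genes 11.1% and 12.6%, median log2 ratio 1.49). Against Reg4-high cells 13 of 50 were higher and 0 lower (all genes 7.26% and 5.81%, median 0.78). The list of ER folding genes and this one kept 0 lower members when the highest 10% of cells were left out for each gene, with 39 and 43 higher than in the other epithelial cells. The cells left out of the comparison class can include Reg4-high cells, and their part in these counts was not tested. Kdelr3, a receptor that returns ER proteins from the Golgi, had means of 1.96 in Muc2-high, 0.476 in Reg4-high and 0.147 in all other epithelial cells. Mia3, which loads bulky cargo at ER exit sites, had 3.82, 1.79 and 0.573, and its COPII partner Sec24d had 1.03, 0.348 and 0.134. The signal peptidase subunit Sec11c had a median of 8 in Muc2-high cells and 2 in both Reg4-high and remaining epithelial cells, and the KDEL receptor Kdelr2 had medians of 7, 3 and 1.

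**Figure D3:**
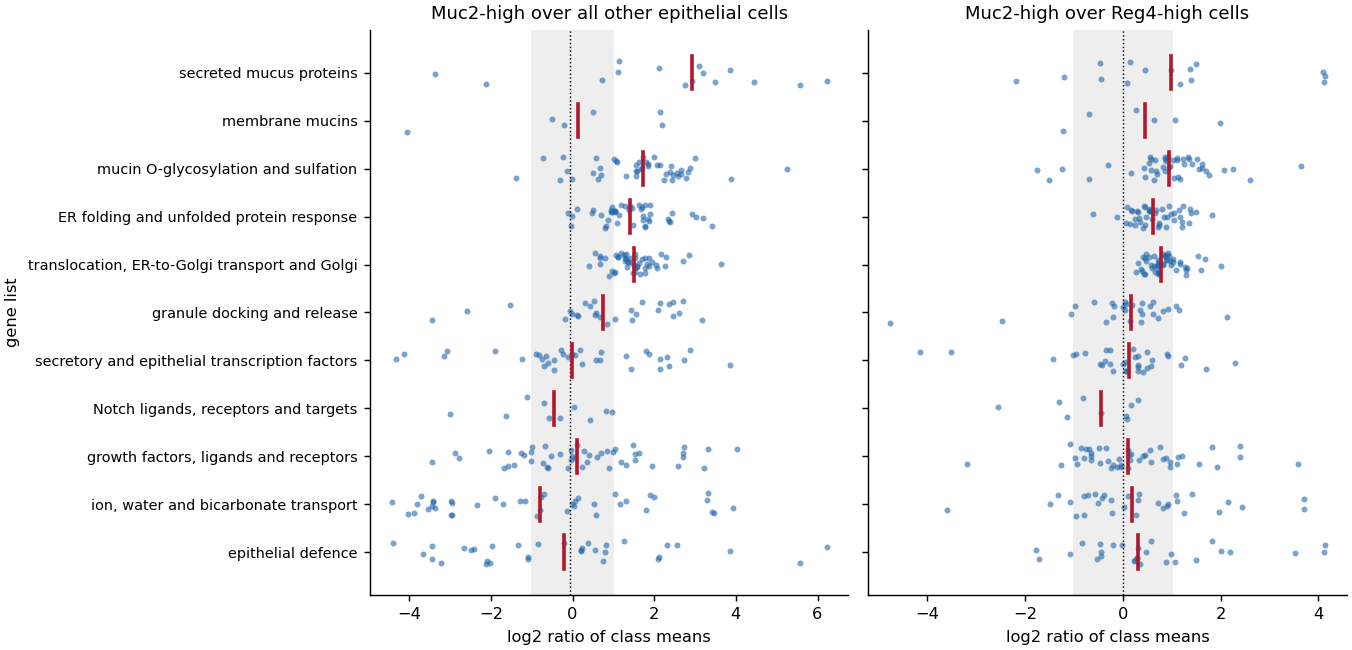
Log2 ratio of class means (x axis) for the members of 11 gene lists (y axis), Muc2-high over all other epithelial cells on the left and over Reg4-high cells on the right, with a point per gene and the list median in red. The grey band marks less than 2-fold and the dotted line the median of all genes (-0.06 left). The O-glycosylation, ER folding and transport lists lie to the right with medians of 1.73, 1.40 and 1.49 on the left and 0.94, 0.63 and 0.78 on the right.

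Genes for docking and release of granules were higher than in the other epithelial cells for 13 of 28 members and lower for 3 (all genes 11.1% and 12.6%, median log2 ratio 0.75). Against Reg4-high cells 3 were higher and 3 lower (all genes 7.26% and 5.81%). The calcium sensor Syt7 had means of 1.81 in Muc2-high, 1.18 in Reg4-high and 0.319 in all other epithelial cells. The granule GTPases Rab3d (2.72, 1.42 and 0.489) and Rab27b (1.79, 1.09 and 0.416) followed the same order. Nlrp6, an inflammasome sensor that acts in mucus release, was at 0.0694 in Muc2-high and 0.0533 in Reg4-high cells, against 0.856 in all other epithelial cells. Scgn, a calcium-binding protein of hormone cells, was at 0 in all 360 cells. This allows a share of up to 0.833% of cells with a count (3 of 360, counting error only).

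Among transcription factors 11 of 35 were 2-fold higher and 6 lower than in the other epithelial cells, beside 11.1% and 12.6% of all genes. Against Reg4-high cells 4 of 34 were higher and 4 lower, beside 7.26% and 5.81%, and the lower share against the other epithelial cells and the higher share against Reg4-high cells lay near those of all genes. Spdef led with means of 5.43 in Muc2-high, 1.65 in Reg4-high and 0.367 in all other epithelial cells. Creb3l1 and Creb3l4, membrane-bound factors of secretory cells, had 6.09, 3.23 and 1.37, and 2.70, 1.90 and 0.358. Atoh1, the factor that sets the secretory fate, did not separate the 2 secretory classes by 2-fold, with means of 2.03 and 2.56 against 0.448 in all other epithelial cells. Cdx2, a factor of intestinal identity, was above 0 in 68.6% of Muc2-high cells, 54.1% of remaining epithelial cells and 18.8% of Reg4-high cells, and in 1.01% of cells with Epcam at 0 (means 1.32 against 0.263, log2 ratio 2.29 over Reg4-high). Sox4, with means of 0.197 and 1.72, was lower than in the other epithelial cells.

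Of 10 Notch ligands, receptors and targets 0 were 2-fold higher and 3 lower than in the other epithelial cells (all genes 11.1% and 12.6%), and of 9 members 0 were higher and 3 lower than in Reg4-high cells (all genes 7.26% and 5.81%). With the highest 10% of cells left out for each gene these became 2 higher and 1 lower, and 0 higher and 2 lower. The ligands Dll1 (0.128 in Muc2-high, 0.793 in Reg4-high cells) and Dll4 (0.267 and 0.671) were lower than in Reg4-high cells, with log2 ratios of -2.54 and -1.30. The receptor Notch1 was at 0.0222 in Muc2-high, 0.0596 in Reg4-high and 0.246 in all other epithelial cells.

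Of ligands and receptors, 15 of 49 members were 2-fold higher and 12 lower than in the other epithelial cells (all genes 11.1% and 12.6%). Against Reg4-high cells 9 of 46 were higher and 3 lower (all genes 7.26% and 5.81%), and the lower share lay near that of all genes. The highest 10% of cells left out gave 7 higher and 8 lower than in Reg4-high cells. Ffar2, a receptor for short-chain fatty acids, was above 0 in 79.2% of Muc2-high cells and 0.284% of cells with Epcam at 0, with a mean of 2.41 against 0.25 in all other epithelial and 0.627 in Reg4-high cells. The muscarinic receptors Chrm1 (0.506, 0.0419 and 0.135) and Chrm3 (0.158, 0.0159 and 0.0219), which receive acetylcholine, were low but in the same order. The chemokine Ccl6 had medians of 19, 22 and 0 in Muc2-high, Reg4-high and remaining epithelial cells, whereas Ccl9 had a mean of 2.34 in Muc2-high against 0.185 in Reg4-high cells. Of the EGF family, Egf was 2-fold higher than in the other epithelial cells (0.361 against 0.0461), and Areg (2.59 against 7.06) and Hbegf (2.08 against 4.76) were lower.

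Transport of ions, water and bicarbonate was lower for 19 of 41 members and higher for 11 against the other epithelial cells (median log2 ratio -0.80). The shares of all genes were 12.6% lower and 11.1% higher. Against Reg4-high cells it was higher for 9 of 32 and lower for 4 (all genes 7.26% and 5.81%). With the highest 10% of cells left out for each gene, 15 were lower and 13 higher than in the other epithelial cells. Lower members included the water channel Aqp8 (0.0333 against 0.921), the chloride-bicarbonate exchanger Slc26a3 (0.0639 against 1.19) and the carbonic anhydrase Car4 (0.0778 against 1.14). Higher members were the transporter Slc12a8 (3.90 against 0.346), the scramblase family gene Ano7 (1.24 against 0.108) and Car8 (3.57 against 0.346). Best2, a bicarbonate channel of colonic secretory cells, had a median of 6 in Reg4-high cells and of 0 in Muc2-high and remaining epithelial cells. Aqp1 had a mean of 1.14 in Muc2-high and 0.0784 in Reg4-high cells.

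Epithelial defence genes were lower for 15 of 33 members and higher for 8 against the other epithelial cells (all genes 12.6% and 11.1%). Against Reg4-high cells they were higher for 8 of 28 and lower for 3 (all genes 7.26% and 5.81%). The highest 10% of cells left out gave 6 and 6 against Reg4-high cells. Apart from Retnlb and Ang4, the lectin Itln1 (0.858 against 0.0498) and the oxidase Duox2 (0.811 against 0.155) were higher than in the other epithelial cells. Il18, a cytokine of surface epithelium (0.167 against 1.92), and the inflammasome adaptor Pycard (2.04 against 5.13) were lower. Pigr, which carries IgA across the epithelium, was even, with medians of 16, 14 and 15 in Muc2-high, Reg4-high and remaining epithelial cells.

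The comparison with Reg4-high cells needs a statement on that class. It held 14 cells with Pyy, Gcg or Insl5 of at least 20, hormones of L cells, and these carried the hormone means of the class, with Pyy at 63.6 in all 319 cells and 0.0820 in the other 305. No Muc2-high cell reached 20 for any of the 3 hormones. Without them the log2 ratios of the granule genes of hormone cells Chga and Pcsk1n moved from -4.93 to -0.19 and from -5.99 to 0.0899, and that of the tight junction gene Cldn14 from -3.49 to -2.79. Mptx1, a mucosal pentraxin, had a 10th percentile of 15, a median of 435 and a 90th percentile of 1616 in Reg4-high cells, against 0, 1 and 206 in Muc2-high cells. Its log2 ratio was -2.96, and -3.02 without the hormone cells.

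Other genes were higher in Reg4-high cells with overlapping ranges. Sval1, a seminal vesicle antigen-like secreted protein, had a median of 85 in Reg4-high and 0 in Muc2-high cells, with 90th percentiles of 240 and 88.5. Hsd11b2, the enzyme that inactivates glucocorticoids, had medians of 18 and 0 and was above 0 in 91.8% and 48.1% of cells, against 3.00% of cells with Epcam at 0. Best2 had a log2 ratio of -3.59, and Ttr, a carrier of thyroid hormone, had means of 0.333 in Muc2-high and 4.08 in Reg4-high cells.

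On the Muc2-high side, Car8 was above 0 in 62.2% of Muc2-high cells, 10.3% of Reg4-high cells and 5.96% of cells with Epcam at 0, and Kcnh3, a potassium channel, had means of 1.61 and 0.116. B4galnt1, a ganglioside synthase, had means of 1.66 and 0.125. Hbb-bs, a globin gene with a near-identical neighbour, had means of 1.10 and 0.0909, but 97.5% of it lay in the top 10% of Muc2-high cells and its mean was higher still, 4.59, in all other epithelial cells.

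Within the Muc2-high cells, genes differed in how they varied with Muc2. Spearman correlations over the 360 cells are given as a description, with no p, for 668 genes with a mean of at least 2. The cells share 1 library, its depth adjustment and its free RNA, and the range of Muc2 starts at 100 by the rule. Of these genes, 89 had rho of 0.3 or higher with Muc2 and 72 had -0.3 or lower. With each cell thinned to 5000 counts these numbers were 23 and 43. The minimum mean of 2 was applied again after thinning, so fewer genes were compared and the numbers are not of the same set. For genes in both sets rho also changed, such as Xbp1 with 0.35 before and 0.12 after thinning.

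The highest were Hgfac, an activator protease of hepatocyte growth factor (0.71), Klk1 (0.67), Pglyrp1, which binds bacterial peptidoglycan (0.64), the trans-Golgi protein Tgoln1 (0.63), Ccl6 (0.63), Nupr1 (0.62), the lipase cofactor Clps (0.60) and the galactosyltransferase B3galt5 (0.59). Tgoln1 has a near-identical relative that could share its reads. In Reg4-high cells Muc2 had rho of 0.60 with Hgfac and 0.63 with Klk1. Within Muc2-high cells rho of Muc2 was 0.10 with Agr2, 0.12 with Spink4, 0.00 with Clca1, -0.08 with Zg16 and -0.12 with Fcgbp, all below the size that is described as co-variation here. Tff3 went the other way, with rho of -0.34. In Reg4-high cells, where Muc2 has no lower limit, rho of Muc2 was 0.39 with Agr2, 0.28 with Spink4, 0.25 with Clca1, 0.24 with Zg16, 0.18 with Fcgbp and -0.16 with Tff3. The Reg4-high cells included 14 cells with high hormone genes, and their part in these values was not tested.

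Ribosomal protein genes ran opposite to Muc2. Of 79 such genes 46 had rho of -0.3 or lower and 2 were above 0 (median -0.31, against 0.03 for all genes compared), led by Rpsa (-0.59) and Rps19 (-0.54). Muc2 is itself part of each cell's total, with rho of 0.43 with the total corrected count and -0.06 with the total of the other genes. With Muc2 left out and each cell scaled to the same remaining total, which was added after the values were seen, 39 of the 79 still had rho of -0.3 or lower.

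Ordering the cells by Muc2 into 4 groups of 90 gives the sizes. Mean Muc2 was 140, 244, 389 and 695. Over these groups mean Klk1 was 29.8, 48.1, 69.1 and 85.6, mean Hgfac 2.91, 5.29, 8.07 and 10.2, and mean B3gnt6 0.933, 1.92, 3.16 and 5.02. Mean Plet1 was 5.71, 10.9, 13.7 and 21.3, so Plet1 and B3gnt6, high in the class, also differed within it. Mean Rpsa was 23.4, 18.7, 14 and 11.8, while mean Agr2 was 166, 200, 170 and 184.

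**Figure D4:**
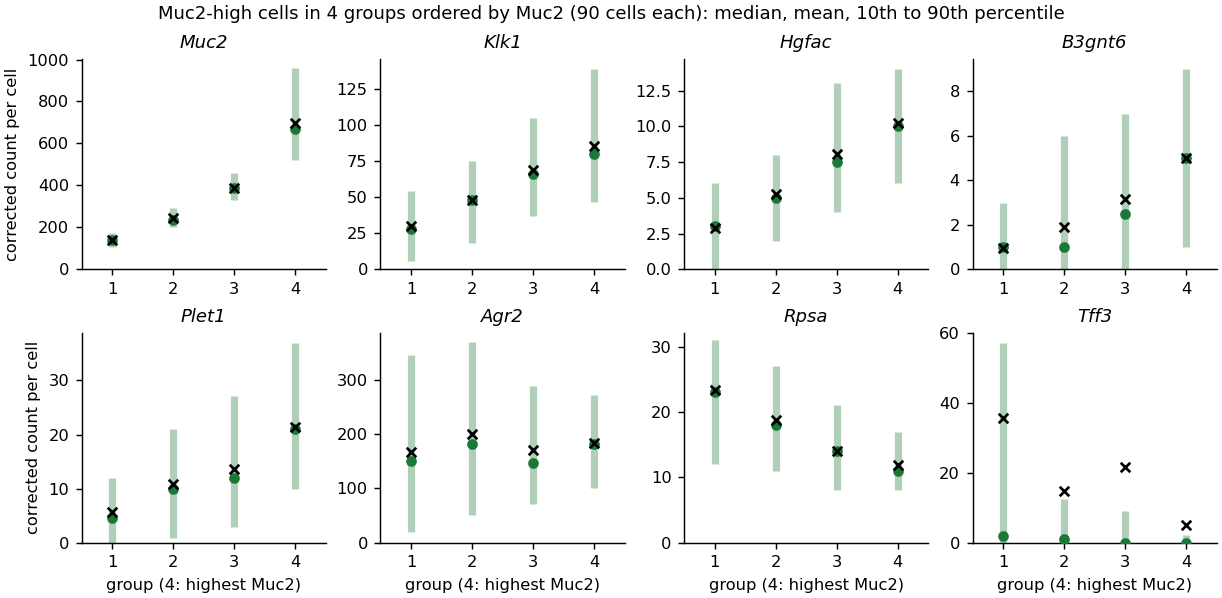
Corrected counts per cell (y axis) of 8 genes in 4 groups of the Muc2-high cells ordered by Muc2 (x axis, 90 cells each), with the median as a dot, the mean as a cross and the 10th to 90th percentile as a bar. Klk1, Hgfac, B3gnt6 and Plet1 have higher means in each next group, Rpsa has means from 23.4 in the lowest to 11.8 in the highest, and Agr2 means lie between 166 and 200.

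Members of the secretory lists were also compared with Agr2, which was chosen after the values were seen. Of ER folding genes with a mean of at least 2, 14 of 21 had rho of 0.3 or higher with Agr2, and 3 of 21 with Muc2. Agr2 is itself a member, and its rho of 1 with itself is counted in the 14. For the transport list these were 22 and 5 of 28, and for the O-glycosylation list 17 and 11 of 23. Over all genes compared, 219 had rho of 0.3 or higher with Agr2 and 89 with Muc2. Single pairs were Agr2 with Cgref1 (0.66), with Spdef (0.51) and with Spink4 (0.43).

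A further set of genes varied together apart from these. Zg16 had rho of 0.51 with Clca1 and 0.40 with Fcgbp, and Clca1 had 0.64 with Fcgbp. Sval1 and Mptx1, both high in Reg4-high cells, had rho of 0.60 with each other, and Mptx1 had 0.43 with Clca1, -0.42 with Agr2 and -0.46 with Plet1. Plet1 had -0.44 with Sval1 and -0.35 with Fcgbp. Of all 668 genes compared, 7 had rho of 0.3 or higher with Zg16. In Reg4-high cells Zg16 had rho of 0.58 with Clca1 and 0.55 with Fcgbp, and Clca1 had 0.68 with Fcgbp. There Mptx1 had 0.47 with Sval1, 0.31 with Clca1, 0.07 with Agr2 and -0.02 with Plet1. Plet1 had -0.04 with Sval1 and -0.18 with Fcgbp in those cells.

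**Figure D5:**
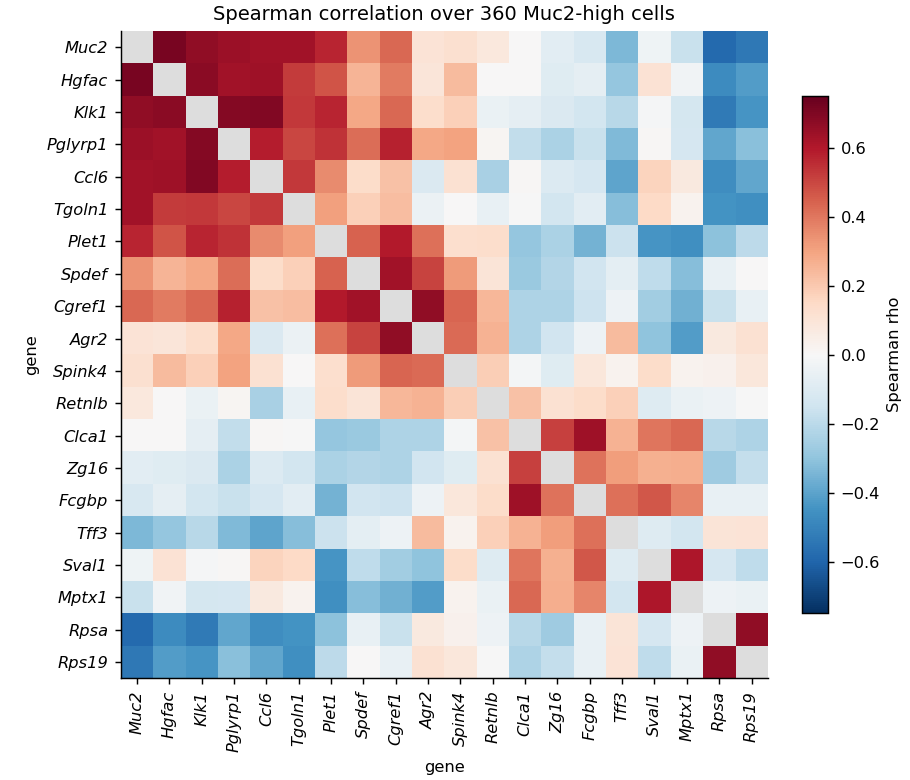
Spearman correlation over the 360 Muc2-high cells between 20 genes (both axes), from blue (negative) to red (positive), with the diagonal in grey. Muc2, Hgfac, Klk1, Pglyrp1, Ccl6 and Tgoln1 form a block (Muc2 with Hgfac 0.71), Agr2 goes with Cgref1 and Spdef (0.66 and 0.51), Clca1, Zg16 and Fcgbp form another (Clca1 with Fcgbp 0.64), and Rpsa and Rps19 run opposite to Muc2.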

How the data were processed

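Cells of a single-cell RNA library of wild-type mouse colon were analysed, with the reporter library as background. Per the submitters' processing notes the authors used Cell Ranger, Seurat 3.1 and R 3.6.2 with build mm10. The deposited whole-number tables hold corrected counts from the authors' SCTransform step, which are treated here as a score and not as molecule counts, so no count model was used. The second deposited tables hold the natural log of 1 plus these values. Classes were cut by the 4 genes of the rule, and the members and gene lists were chosen with earlier results of these data known. Class means were compared with a pseudocount of 0.01 for genes with a mean of at least 0.1 in either class, and a 2-fold difference is named without a test because there was 1 library of 3 pooled mice.

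Named genes were those of the role lists, the 20 highest and 10 lowest ratios over the other epithelial cells, the 15 highest and 15 lowest over Reg4-high cells (mean of at least 1 in the higher class), and the 8 highest and 5 lowest correlations with Muc2. Doublets were called with Scrublet in scanpy 1.11.5 at an expected rate of 6% (95 cells, 1.27%) and kept, since the default rate of 5% called 7 cells (0.0934%). Python 3.11.15, numpy 2.4.6, scipy 1.17.1 and pandas 2.3.3 were used, and the scripts were tested on simulated data. Means without the highest 10% of cells, Reg4-high cells without hormone cells, the removal of Muc2 from the totals and the correlations with Agr2 and Zg16 were added after the data were seen. Promoter sequences were from RefSeq, build GRCm38.p6.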

Additional observations from a re-analysis of the deposited data

How the results depend on the processing

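The share of Muc2-high cells (12%) was 14.8% with a Muc2 minimum of 50, 8.68% with a minimum of 200, 9.85% with an Epcam minimum of 2 and 17.7% without cells above 10% mitochondrial counts. The number of genes 2-fold higher and lower than in the other epithelial cells was 708 and 629 with a pseudocount of 0.1, and 382 and 224 with a minimum mean of 1, and the lower genes were 2009 with no filter. Against Reg4-high cells these numbers were 392 and 202 with a pseudocount of 0.1, 196 and 71 with a minimum mean of 1, and 1116 and 1199 with no filter, and the lower genes were 352 after thinning to 5000 counts. The minimum mean of 1 and the absence of a filter change how many genes are compared. Of the transport list, 21 members in place of 13 were higher than in Reg4-high cells without cells above 10% mitochondrial counts, and of the secreted mucus list 4 in place of 7 with the highest 10% of cells left out. Thinning left 23 and 43 genes in place of 89 and 72 at a rho of 0.3 or higher and -0.3 or lower with Muc2. Fewer genes were compared after thinning, because the minimum mean of 2 was applied again. Among genes in both sets, rho with Muc2 also changed. It was smaller for Hgfac (0.71 before and 0.59 after) and Xbp1 (0.35 and 0.12), and larger in size for Tff3 (-0.34 and -0.37). The part of each in the drop was not tested, nor was the cause of the other changes. Of the ratios of genes named by their rank in ratio or correlation, 5 changed sign. Nts over the other epithelial cells was 1.26 and Tgm3 over Reg4-high cells 0.24 with a Muc2 minimum of 50, Tgm3 was 0.38 without cells above 10% mitochondrial counts, Hbb-bs over the other epithelial cells was 0.34 with the highest 10% of cells left out, and Pcsk1n over Reg4-high cells was 0.0899 without the hormone cells. A further 1375 of these ratios moved little and 216 moved more. Genes named only as members of the role lists were not counted here. Among them, Zg16 over the other epithelial cells turned to -1.60 with the highest 10% of cells left out. No paired analysis was possible because there was 1 library and no cell was assigned to a mouse.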
